A study of Mus musculus with 6 samples.

Results

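The 35 genes described here are markers of endothelial cells, receptors and transcription factors of the angiogenic pathways, and the ligands *Vegfa* and *Vegfb*, and they were measured by RNA-seq in quadriceps muscle of 3 control and 3 miDrp1KO mice. The genes were chosen by symbol from general knowledge of the vessel wall, with earlier results of these data known. All 35 are among the 27179 genes of the count files. The miDrp1KO mice carry floxed *Dnm1l* alleles and HSA-MerCreMer, a tamoxifen-inducible Cre driven by the human *ACTA1* promoter, whereas the genotype label of the controls, Control f/f, names floxed alleles and no Cre. Mice of both groups were injected with tamoxifen at 3 months of age and were studied 3 weeks after the deletion, and the line had been backcrossed to C57BL/6J. According to the methods, control and miDrp1KO mice were males kept on normal chow or a high-fat diet. The methods of the RNA-seq do not name the diet of the sequenced mice. The *ACTA1* promoter acts in skeletal muscle fibres and the Cre line is not aimed at endothelial cells, whereas the libraries hold RNA of the whole muscle, fibres included. Each library is named by its group and the letter in its label, and nothing in the labels ties the mice of the groups to each other.

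Capillaries of skeletal muscle are single-layered tubes of endothelial cells that lie along the fibres and supply them with oxygen, glucose and fatty acids. Vascular endothelial growth factor A (VEGF-A), much of it made by the fibres, binds the endothelial receptors VEGFR1 (*Flt1*) and VEGFR2 (*Kdr*) and maintains the capillary bed, whereas the TIE receptors, Notch and apelin signalling set the stability, branching and calibre of vessels. Muscles rich in oxidative fibres are known to have a denser capillary network than glycolytic ones.

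Counts per library ran from 13989588 to 62042255, and values are given as CPM, counts scaled to library sizes normalized by the trimmed mean of M values (TMM). Ribosomal RNA genes took 1.48 to 24.4% of the counts. The TMM factor of miDrp1KO replicate E, at 1.42, was the highest, whereas those of the other 5 libraries lay between 0.84 and 1.04. *Dnm1l* was lower in each miDrp1KO library (70.6, 81.3 and 66.2 CPM) than in any control library (156, 114 and 140.3 CPM), which checks the labels, although its log2 fold change of −0.91 had an adjusted p of 0.362. The p-values from edgeR set the difference between the groups against the spread between these 6 mice, which is estimated with information shared across genes.

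All 35 genes passed the filter on low counts, and the lowest count of any of them in a library was 8. The 13 defining markers of endothelial cells (*Pecam1*, *Cdh5*, *Kdr*, *Tie1*, *Tek*, *Emcn*, *Esam*, *Cldn5*, *Egfl7*, *Vwf*, *Erg*, *Sox17* and *Sox18*) are themselves among the 35 and had counts in all 6 libraries, which in whole muscle does not show the cell type the reads came from. Per kilobase of exon, mean levels in control muscle were highest for *Vegfa* (48.2 CPM per kb) and *Aqp1* (46.5), followed by *Ly6c1* (29.03), *Vegfb* (15.9), *Pecam1* (10.6) and *Cdh5* (9.15). The lowest were *Apln* (0.426 CPM per kb), *Flt4* (0.596), *Notch4* (0.613), *Dll4* (0.622) and *Sox7* (0.628). The first 2 of this order did not differ beyond their spread between mice, since *Vegfa* alone ranged 2.10-fold between the control libraries. In miDrp1KO muscle *Vegfa* (47.1 CPM per kb) and *Aqp1* (42.8) again stood above the rest.

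None of the 35 genes differed between miDrp1KO and control muscle after adjustment over the 16483 genes tested (edgeR's quasi-likelihood test, Benjamini-Hochberg, lowest adjusted p = 0.416), and across all genes 0.0121% were called. limma voom called none of them either, nor did DESeq2, which gave an adjusted p to 10 of the 35. At an unadjusted p under 0.05 in edgeR there were 2 of 35, *Podxl* and *Plvap*, both lower, a share of 5.71% beside 6.22% of all genes on that side. On the higher side there were none, beside 4.68% of all genes. Neither gene was at this level without control B or miDrp1KO A, where *Gpihbp1* and *Cldn5*, respectively, both higher, were the 1 gene that was, nor without control D or miDrp1KO F, where there was none. In bulk tissue, fewer endothelial cells and less RNA per endothelial cell cannot be told apart.

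The fitted log2 fold change was negative for 26 of the 35 genes (74.3%) and positive for 9, where 48.0% of all genes tested were negative. Their median was −0.12, beside 0.017 over all genes. The estimates ran from −0.74 for *Podxl* to 0.33 for *Cldn5*, with standard errors of 0.16 to 0.55, and 30 of the 35 intervals at 95% lay within a 2-fold change in either direction. The exceptions were *Kdr*, *Podxl*, *Aplnr*, *Sox7* and *Apln*, whose intervals reached beyond it. Without control replicate B the median turned to 0.067, with 14 of the 35 genes lower and 21 higher, so its sign depended on that mouse. Its size also depended on other choices. The median was −0.049 without miDrp1KO replicate A, with 18 genes lower and 17 higher, and −0.032 with upper quartile normalization, with 21 lower and 14 higher.

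**Figure D1:**
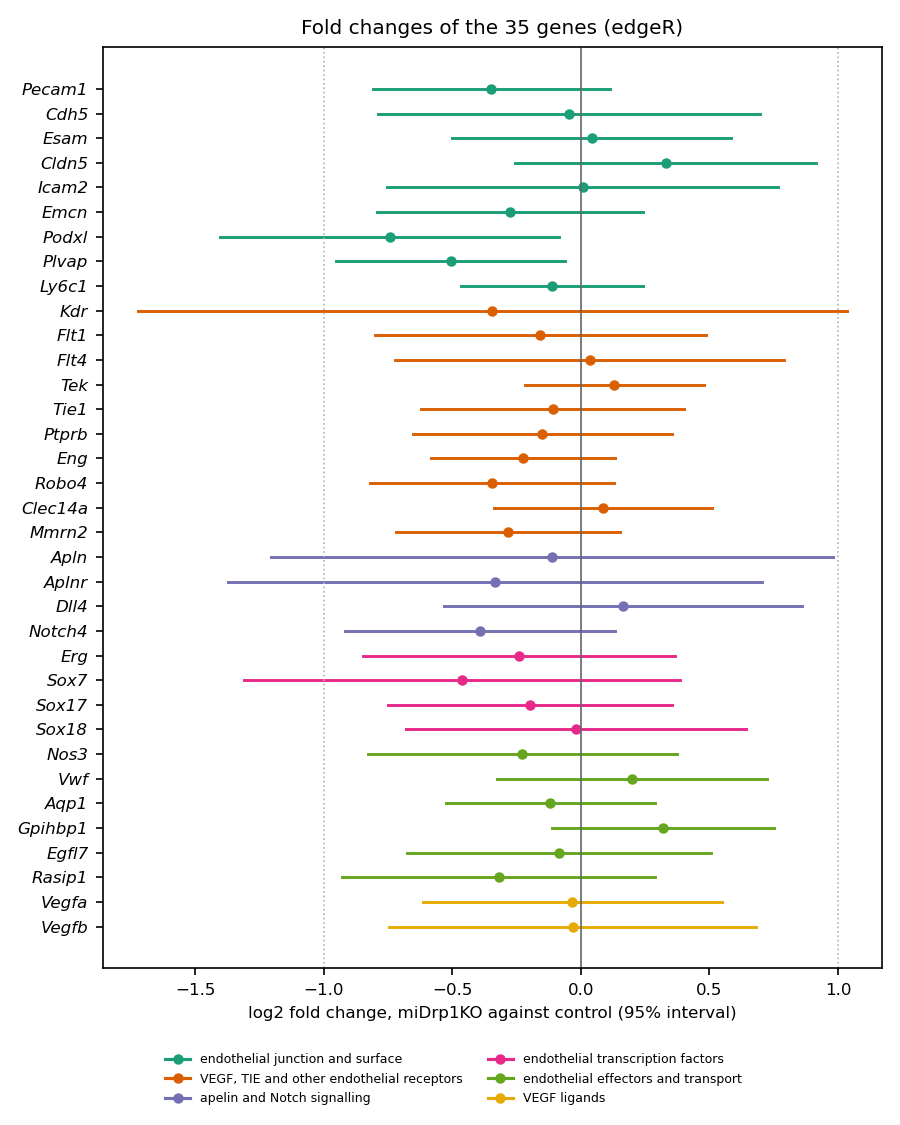
Log2 fold change of each of the 35 genes between miDrp1KO and control muscle (horizontal axis) with its 95% interval from edgeR, coloured by role, with dotted lines at a 2-fold change in either direction. Points lie between −0.74 for *Podxl* and 0.33 for *Cldn5*, and the intervals of *Podxl* and *Plvap* are the ones that do not cross 0.

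The larger difference among these genes was between mice of the same genotype. Control replicate B was the highest of the 6 libraries for 24 of the 35 genes (68.6%), beside 16.4% of all genes tested, and the lowest for none. Control replicate C was the lowest for 13 and miDrp1KO replicate A for 12. Averaged over the 35 genes, the log2 CPM was 4.04, 3.34 and 3.68 in controls B, C and D against 3.29, 3.83 and 3.52 in miDrp1KO mice A, E and F. The groups overlapped in this mean, and their difference of −0.14 was smaller than the SD of 0.35 between control mice and of 0.27 between miDrp1KO mice. For 25 of the 35 genes the control mice alone spanned more than 1.5-fold, and for 25 the difference of the group means was smaller than the SD of the control group.

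The 13 defining endothelial markers summed to 362, 207 and 281 CPM in controls B, C and D and to 212, 324 and 240.5 CPM in miDrp1KO mice A, E and F. The mice at the top of this order, control B and miDrp1KO E, were also high for the 9 markers of slow oxidative fibres, which summed to 484, 74.3 and 109 CPM in control and 100.4, 799 and 717 CPM in miDrp1KO libraries. Replicate F, however, had a high slow fibre sum and an endothelial sum below those of controls B and D. All 9 slow fibre markers, among them the slow myosin *Myh7* and the slow troponin *Tnni1*, were detected in all 6 libraries and had positive log2 fold changes (median 1.45), none of them at an unadjusted p under 0.05. That median was 3.45 without control B and 0.93 without control C. The 9 blood cell markers in the files summed to 279.7, 67.8 and 50.5 CPM in control and 79.5, 237 and 141 CPM in miDrp1KO libraries, again with B and E the highest of their groups. Their median log2 fold change of 0.16 was 1.33 without control B and 0.49 with limma voom. It was negative without control C (−0.041), control D (−0.095) or miDrp1KO E (−0.10). The part of fibre type and of blood in the endothelial levels was not tested. The sum of the 10 general and fast fibre markers, 283830, 245980 and 300260 CPM in control and 227360, 136670 and 111100 CPM in miDrp1KO libraries, was lower in each miDrp1KO library than in any control library. Singly, 9 of the 10 were lower and 1 higher, none after adjustment, and the groups did not overlap for 3, all lower, beside 18.0% of all genes. The fast myosin *Myh4* (log2 fold change −1.29, adjusted p = 0.392 from edgeR) and the fast fibre actinin *Actn3* (−0.95, adjusted p = 0.407) were lower at an unadjusted p under 0.05, beside 6.22% of all genes.

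**Figure D2:**
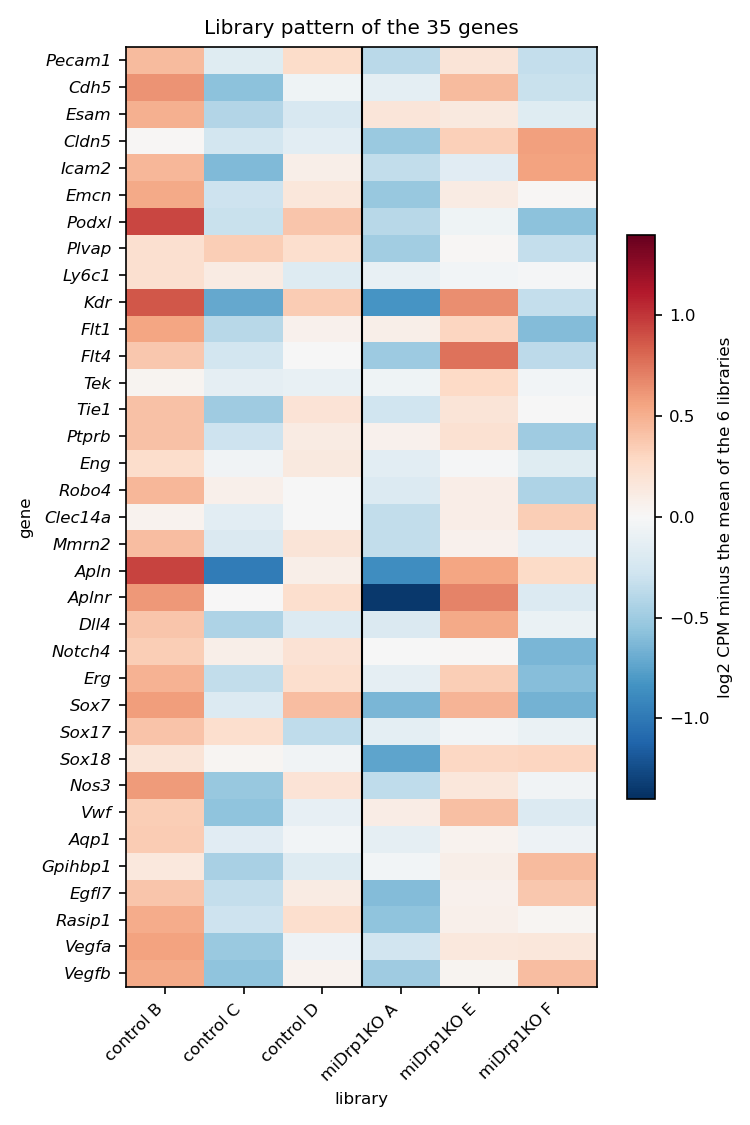
Log2 CPM of each of the 35 genes in each library after subtraction of the gene's mean over the 6 libraries (colour scale), with the control libraries left of the line and the miDrp1KO libraries right of it. Control B is red for most genes, C and miDrp1KO A are blue for most, and miDrp1KO E is red for many.

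Of the genes that set the surface and junctions of endothelial cells, *Podxl* and *Plvap* had the lowest p. *Podxl* (chromosome 6 of GRCm38, 31519493 to 31563937) encodes podocalyxin, a sialylated mucin of the luminal surface. It was found at 49.01, 20.8 and 33.7 CPM in controls B, C and D against 19.7, 24.8 and 17.3 CPM in miDrp1KO mice A, E and F. Control C lay among the miDrp1KO libraries, so the groups overlapped. The means were 34.5 ± 14.1 CPM (SD, n = 3) and 20.6 ± 3.798 CPM (SD, n = 3). The log2 fold change was −0.74 (standard error 0.29, unadjusted p = 0.0311 and adjusted p = 0.417 from edgeR), and the estimate was negative in all 12 alternative analyses (−1.02 to −0.39).

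*Plvap* (chromosome 8 of GRCm38, 71497753 to 71511806) encodes the protein of the diaphragms that close endothelial fenestrae and caveolae. It was measured at 7.06, 7.65 and 7.11 CPM in the control libraries and at 4.33, 6.13 and 4.799 CPM in miDrp1KO mice A, E and F, with all miDrp1KO libraries below all control libraries (p = 0.1 in a two-sided exact permutation test, the lowest value possible with 3 mice in each group and the one that any gene without overlap has). *Notch4* was the other gene of the 35 whose groups did not overlap, which makes 2 of 35 (5.71%) beside 18.0% of all genes tested. The log2 fold change of *Plvap* was −0.51 (standard error 0.20, unadjusted p = 0.0295 and adjusted p = 0.416 from edgeR), and it stayed between −0.67 and −0.38 in the 12 alternatives. Markers of adipocytes were also lower in miDrp1KO muscle, with all 7 of them at a negative fold change and summed levels of 189, 398 and 287 CPM in control and 152, 71.4 and 183 CPM in miDrp1KO libraries, of which 4 had an unadjusted p under 0.05 (*Adipoq*, *Plin1*, *Adrb3* and *Cfd*), beside 6.22% of all genes. None of the 7 was at 0 in any library, and their part in the *Plvap* and *Podxl* values was not tested.

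The genes of the endothelial junction did not share a direction. *Pecam1* (CD31, chromosome 11 of GRCm38, 106654213 to 106715281), an adhesion molecule of the cell border, was 78.1, 51.5 and 68.8 CPM in control and 44.4, 65.4 and 45.9 CPM in miDrp1KO libraries (log2 fold change −0.35, adjusted p = 0.5697). *Cdh5*, which encodes VE-cadherin, was 56.2, 24.4 and 34.8 CPM in control and 33.1, 49.3 and 29.3 CPM in miDrp1KO libraries, so that its highest and its lowest value were both from control mice. *Cldn5*, the claudin of endothelial tight junctions, was the gene with the highest estimate in the main test, at 5.82, 4.81 and 5.21 CPM in control against 4.03, 7.28 and 8.59 CPM in miDrp1KO libraries, a log2 fold change of 0.33 (95% interval −0.26 to 0.92). Over the 12 alternatives its estimate ran from 0.13 to 0.60. It was not the highest with limma voom or without control B, miDrp1KO E or miDrp1KO F. For *Cldn5* the miDrp1KO mice lay on both sides of the control mice, with A below and E and F above all of them. *Esam* (control 5.61 to 10.6 CPM, miDrp1KO 6.67 to 8.41 CPM) and *Icam2* (control 1.603 to 3.41 CPM, miDrp1KO 1.94 to 3.65 CPM), both adhesion molecules of the immunoglobulin family, had log2 fold changes of 0.042 and 0.0070. *Emcn* (endomucin), a marker of capillary and venous endothelium, was 19.1 ± 5.32 CPM in control and 15.8 ± 3.56 CPM in miDrp1KO muscle (SD, n = 3 each), and *Ly6c1*, a marker of capillary endothelium in mice, was 54.5, 50.5 and 40.99 CPM in control and 43.4, 45.6 and 46.1 CPM in miDrp1KO libraries. Neither difference exceeded the SD of the control group. Reads of *Ly6c1* may be shared with its close relative *Ly6c2*, and how they were counted is not stated.

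**Figure D3:**
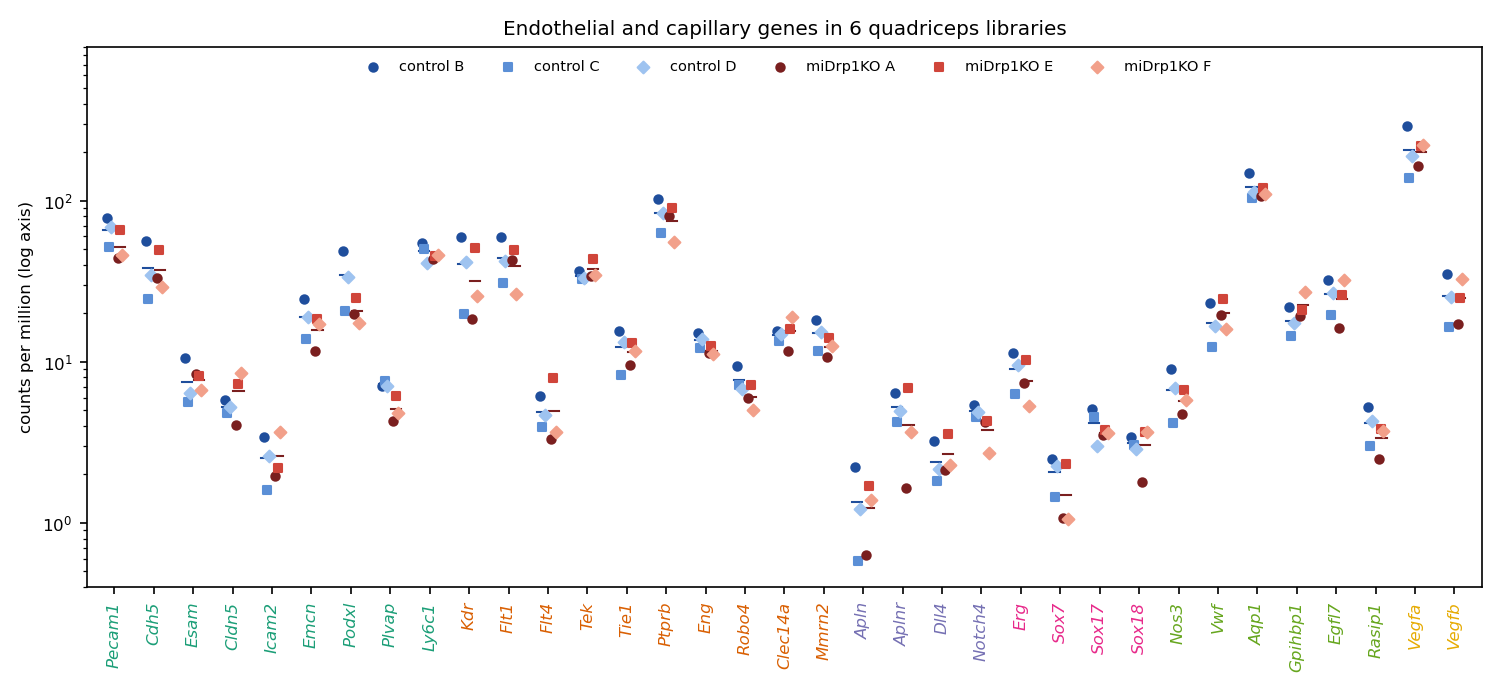
Level of each of the 35 genes in CPM (vertical log axis) in the 6 libraries, with 1 point per library, horizontal bars at the mean of each group and gene names coloured by role. The points of the control and miDrp1KO libraries interleave for all genes but *Plvap* and *Notch4*, and *Vegfa* and *Aqp1* have the highest values.

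Among the growth factor receptors, *Kdr* varied most between mice. It was 59.6, 19.9 and 41.6 CPM in controls B, C and D against 18.4, 51.1 and 25.8 CPM in miDrp1KO mice A, E and F. Each group held a low and a high mouse, and the 95% interval of the log2 fold change, −1.72 to 1.03 around −0.34, was the widest of the 35 genes. *Flt1*, whose product binds VEGF-A with high affinity and limits what reaches *Kdr*, was 59.5, 30.8 and 42.3 CPM in control and 42.7, 49.6 and 26.5 CPM in miDrp1KO libraries (log2 fold change −0.16, 95% interval −0.80 to 0.49). *Flt4* (VEGFR3), which is most abundant on lymphatic endothelium, was far lower per kilobase and had its highest and its lowest value in miDrp1KO mice, 3.31 to 7.94 CPM against 3.94 to 6.11 CPM in control.

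The angiopoietin receptor *Tek* (TIE2) was the steadiest gene of this group, at 36.8, 32.9 and 33.3 CPM in control and 34.3, 43.5 and 34.7 CPM in miDrp1KO libraries. Its log2 fold change of 0.13 had the smallest standard error of all 35 genes (0.16) and a 95% interval of −0.22 to 0.48. *Tie1*, the co-receptor of *Tek*, ran from 8.24 to 15.4 CPM in control and from 9.57 to 13.2 CPM in miDrp1KO libraries, and *Ptprb*, the phosphatase that keeps TIE2 in check, from 63.5 to 103 CPM and from 55.1 to 89.8 CPM. For both genes the miDrp1KO values lay within or next to the control range. *Eng* (endoglin), a co-receptor for BMP9 and TGF-β, was 13.7 ± 1.39 CPM in control and 11.7 ± 0.714 CPM in miDrp1KO muscle (SD, n = 3 each). *Robo4*, a receptor that stabilizes the vessel barrier, was 7.75 ± 1.42 and 6.06 ± 1.09 CPM, with log2 fold changes of −0.23 for *Eng* and −0.35 for *Robo4* (adjusted p = 0.6396 and 0.577 from edgeR). *Clec14a* and *Mmrn2*, which encode a surface lectin and the matrix protein it binds, had estimates of opposite sign, 0.085 (14.7 ± 1.01 CPM in control, 15.6 ± 3.66 CPM in miDrp1KO) and −0.28 (15.1 ± 3.26 CPM in control, 12.4 ± 1.72 CPM in miDrp1KO).

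The ligands showed no difference that exceeded the mouse-to-mouse spread. *Vegfa* (chromosome 17 of GRCm38, 46016993 to 46032377) was 292, 139 and 189 CPM in controls B, C and D against 164, 219 and 222 CPM in miDrp1KO mice A, E and F. All 3 miDrp1KO mice lay between the highest and the lowest control mouse. The means were 207 ± 78.3 and 202 ± 32.5 CPM (SD, n = 3 each), and the 95% interval of the log2 fold change ran from −0.62 to 0.55 around −0.034. *Vegfb*, a ligand of VEGFR1, was 34.99, 16.5 and 25.2 CPM in control and 17.2, 25.00 and 32.9 CPM in miDrp1KO libraries (log2 fold change −0.033). The sign of both estimates changed with the analysis, and was positive with upper quartile normalization (0.055 for *Vegfa* and 0.061 for *Vegfb*) and when ribosomal RNA genes and *Lars2* were left out (0.0095 and 0.012).

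*Apln*, a ligand made by sprouting endothelial tip cells, was the least abundant of the 35 genes per kilobase, at 2.23, 0.583 and 1.22 CPM in control and 0.632, 1.69 and 1.39 CPM in miDrp1KO libraries. These values rest on 47, 8 and 73 counts in control and 13, 69 and 29 counts in miDrp1KO libraries. Its receptor *Aplnr* was 6.44, 4.23 and 4.96 CPM in control and 1.65, 6.84 and 3.695 CPM in miDrp1KO libraries, and miDrp1KO replicates A and E lay at opposite ends of all 6. *Dll4*, the Notch ligand of tip cells and arteries, was 2.397 ± 0.731 CPM in control and 2.67 ± 0.774 CPM in miDrp1KO muscle (SD, n = 3 each). *Notch4*, the endothelial Notch receptor, was 5.398, 4.52 and 4.91 CPM in control and 4.23, 4.29 and 2.74 CPM in miDrp1KO libraries, so that each miDrp1KO mouse was below each control mouse, A and E closely below control C and F further down (log2 fold change −0.39, standard error 0.24, unadjusted p = 0.127 and adjusted p = 0.573 from edgeR).

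The transcription factors that specify endothelial cells had negative estimates throughout, and none was called. *Erg*, an ETS factor that keeps endothelial genes active, was 11.3, 6.34 and 9.53 CPM in control and 7.39, 10.3 and 5.33 CPM in miDrp1KO libraries (log2 fold change −0.24, 95% interval −0.85 to 0.37). *Sox7* was 2.51, 1.46 and 2.25 CPM in control and 1.07, 2.33 and 1.06 CPM in miDrp1KO libraries (log2 fold change −0.46). Of its relatives in the SoxF family, *Sox17*, a factor of arterial endothelium, had a log2 fold change of −0.20 (control 3.01 to 5.07 CPM, miDrp1KO 3.499 to 3.75 CPM). *Sox18* was at −0.018 (control 2.898 to 3.41 CPM, miDrp1KO 1.798 to 3.695 CPM), and its sign turned positive with upper quartile normalization (0.079) and when ribosomal RNA genes and *Lars2* were left out (0.028). The exons of *Sox17* overlap a gene on the opposite strand, as do those of *Nos3*, *Eng*, *Dll4*, *Egfl7* and *Rasip1*, the last 2 also overlapping a gene on their own strand, and how such reads were counted is not stated.

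Of the genes by which endothelial cells act on blood and muscle, *Gpihbp1* had the highest estimate. It encodes the protein that carries lipoprotein lipase to the capillary lumen, and was 21.97, 14.5 and 17.5 CPM in control and 19.3, 21.1 and 27.02 CPM in miDrp1KO libraries. The miDrp1KO mice lay in the upper part of the control range or above it (log2 fold change 0.32, standard error 0.20, adjusted p = 0.575), and the estimate was positive in all 12 alternatives (0.17 to 0.51). *Aqp1*, the water channel of continuous capillaries, was 149, 104 and 113 CPM in control and 107, 120.04 and 110.4 CPM in miDrp1KO libraries, all but control B within a narrow band. *Nos3*, the endothelial nitric oxide synthase, ran from 4.15 to 9.09 CPM in control and from 4.71 to 6.69 CPM in miDrp1KO libraries. *Vwf*, the haemostatic factor, was 17.4 ± 5.39 CPM in control and 20.01 ± 4.23 CPM in miDrp1KO muscle, with a log2 fold change of 0.20. *Egfl7*, a secreted endothelial protein whose gene holds *Mir126a*, was 26.2 ± 6.44 and 24.7 ± 8.04 CPM, and *Rasip1*, a Ras-interacting protein needed for lumen formation, 4.18 ± 1.14 and 3.36 ± 0.762 CPM (SD, n = 3 each). Their log2 fold changes were −0.085 and −0.32.

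Because many of the 35 genes were high or low in the same mice, each was also expressed relative to the mean log2 CPM of the other 34 in the same library, a scale chosen after the values were seen. On it the groups did not overlap for 5 genes (14.3%), with *Podxl*, *Pecam1* and *Mmrn2* lower and *Gpihbp1* and *Dll4* higher in miDrp1KO muscle. The share over all genes tested was 9.18% on this scale and 18.0% in CPM, where the 35 genes were at 5.71%. The scale takes differences between mice that the 35 genes share out of them and adds these differences to genes that do not vary with them. The shares of 14.3% and 9.18% are therefore not a like comparison. For *Podxl* the relative log2 level was 1.62, 1.07 and 1.44 in control and 1.05, 0.83 and 0.62 in miDrp1KO libraries. For *Gpihbp1* it was 0.43, 0.54 and 0.47 in control and 1.02, 0.60 and 1.28 in miDrp1KO libraries. The differences of the means were −0.55, −0.21, −0.13, 0.48 and 0.30 for *Podxl*, *Pecam1*, *Mmrn2*, *Gpihbp1* and *Dll4*. Each had a two-sided exact permutation p of 0.1, the smallest possible. Any gene whose groups do not overlap has this p, so it adds nothing to the lack of overlap by which the 5 genes were picked. *Plvap* and *Notch4*, whose groups were apart in CPM, overlapped on this scale.

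The stretches before the transcription start of 4 genes, examples of those that were highest in control B, are shown to let their sequence be compared. RefSeq promoter windows (GRCm38.p6, 250 bases before to 50 after the start, first window per gene) were matched for 20 of the 35 genes. The letters AGGAAG, the core bound by ETS factors such as ERG, were found on either strand in 10 of these 20 windows (50%), beside 35.1% of the 27025 windows of all genes. The SOX core ACAAAG was held by 3 windows (15%), beside 18.7% of all windows. For the GATA core, spelled AGATAA, there were matches in 2 windows (10%), beside 11.4% of all windows. The core of the hypoxia response element, ACGTG, was in the window of *Clec14a* alone (1 of 20, 5.0%), beside 19.7% of all windows. A match describes letters and not a bound site. Of the other genes highest in control B, the windows of *Apln*, *Emcn*, *Flt1*, *Notch4*, *Rasip1*, *Robo4* and *Tie1* held the ETS core. Those of *Kdr*, *Erg*, *Vegfb* and *Ly6c1* did not. A part of the core in the levels of control B was not tested. The 120 bases before the start are given 5′ to 3′ for *Eng* (chr2:32646475-32646594, plus strand), *Aqp1* (chr6:55336179-55336298, plus strand) and *Egfl7* (chr2:26580963-26581082, plus strand), which hold the ETS core (capitals, either strand), and for *Vegfa* (chr17:46032378-46032497, minus strand), which does not. The 4 genes did not share their lowest library, which was miDrp1KO F for *Eng*, miDrp1KO A for *Egfl7* and control C for *Aqp1* and *Vegfa*.
Eng: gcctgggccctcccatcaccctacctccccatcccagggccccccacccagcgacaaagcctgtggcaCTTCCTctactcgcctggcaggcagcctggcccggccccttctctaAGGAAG
Aqp1: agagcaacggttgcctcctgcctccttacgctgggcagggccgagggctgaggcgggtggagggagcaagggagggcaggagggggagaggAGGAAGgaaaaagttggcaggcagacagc
Egfl7: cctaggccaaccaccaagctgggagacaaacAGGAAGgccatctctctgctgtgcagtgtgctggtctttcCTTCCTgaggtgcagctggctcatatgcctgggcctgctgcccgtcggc
Vegfa: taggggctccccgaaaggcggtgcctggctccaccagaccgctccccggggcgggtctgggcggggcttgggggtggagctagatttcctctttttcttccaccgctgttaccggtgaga

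The other genes of these pathways were looked at as lists written from general knowledge, with earlier results of these data known. Shares of a list set beside those of all genes are therefore descriptions. No gene of any list was called by edgeR after adjustment. Of the 27 tested ligands and receptors of angiogenesis outside the 35, 14 were higher and 13 lower in miDrp1KO muscle. Their median log2 fold change was 0.051, and none was at an unadjusted p under 0.05. The median was −0.066 without miDrp1KO E and 0.14 without miDrp1KO F. Among the 18 regulators of hypoxia signalling and of *Vegfa*, 9 were higher and 9 lower (median 0.011). At an unadjusted p under 0.05, 2 of these 18 were lower, beside 6.22% of all genes, and 1 higher, beside 4.68%. *Hif1an*, an asparagine hydroxylase that blunts HIF activity, was 174, 182 and 184 CPM in control and 138, 88.6 and 77.7 CPM in miDrp1KO libraries (log2 fold change −0.83, unadjusted p = 0.00317 and adjusted p = 0.362 from edgeR). *Egln1*, the prolyl hydroxylase that marks HIF for degradation, was 216, 158 and 185 CPM in control and 123, 127 and 146 CPM in miDrp1KO libraries (log2 fold change −0.50, adjusted p = 0.393), and *Ankrd37*, a HIF target, 1.18, 1.89 and 1.02 CPM in control and 2.19, 2.28 and 2.21 CPM in miDrp1KO libraries (log2 fold change 0.75, adjusted p = 0.444). In all 3 genes the groups did not overlap, and over the list this held for 6 of 18 genes, 2 higher and 4 lower, beside 18.0% of all genes tested. The other 3, named after their values were seen, were *Hif3a* (higher, log2 fold change 0.63), *Arnt*, the partner of the HIF subunits (lower, −0.28), and *Pdk1*, a HIF target (lower, −0.28). The values of *Ankrd37* rest on 25, 26 and 61 counts in control and 45, 93 and 46 counts in miDrp1KO libraries. *Vegfa* itself lay within the control range. Without control B the median of the list was 0.17.

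In the list of 10 further Notch genes, 6 were higher and 4 lower (median 0.010, and −0.30 without miDrp1KO E), and *Nrarp*, a target that feeds back on Notch, had an unadjusted p under 0.05 (log2 fold change −0.52, adjusted p = 0.458). Its values were 5.16, 4.15 and 3.58 CPM in control and 2.92, 3.16 and 2.83 CPM in miDrp1KO libraries, without overlap. It was the 1 gene of the 10 at that level, beside 6.22% of all genes on the lower side. It was also the 1 of the 10 without overlap, beside 18.0% of all genes. Of 12 tested genes of fatty acid and glucose transport across the capillary, 7 were lower and 5 higher (median −0.11, and from −0.35 without control C to 0.088 without miDrp1KO A). *Tcf15*, a transcription factor that with *Meox2* drives fatty acid uptake by the endothelium of heart and muscle, was 12.5, 4.23 and 9.49 CPM in control and 3.31, 5.79 and 3.26 CPM in miDrp1KO libraries (log2 fold change −1.08, unadjusted p = 0.0256 and adjusted p = 0.409 from edgeR), with groups that overlapped. At an unadjusted p under 0.05 in edgeR there was 1 of the 12, *Tcf15*, beside 6.22% of all genes on the lower side. The groups did not overlap for 1 of the 12, the fatty acid binding protein *Fabp4*, beside 18.0% of all genes tested. Adipocytes also express *Fabp4*, which is named after its values were seen. It was 243, 296 and 269.7 CPM in control and 174, 213 and 226 CPM in miDrp1KO libraries (log2 fold change −0.40, unadjusted p = 0.0591 and adjusted p = 0.474 from edgeR).

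A second list of 23 endothelial genes held 15 lower and 8 higher genes (median log2 fold change −0.072), of which 3 lower and 2 higher were at an unadjusted p under 0.05, beside 6.22% and 4.68% of all genes. That median was positive without miDrp1KO A (0.10), without control B (0.077) and with upper quartile normalization (0.019), and was −0.29 without miDrp1KO E. *Mcam* (CD146), shared by endothelial cells and pericytes, was 16.3, 16.5 and 16.5 CPM in control and 9.92, 9.44 and 11.1 CPM in miDrp1KO libraries, with a wide gap between the groups (log2 fold change −0.70, standard error 0.16, unadjusted p = 0.00103 and adjusted p = 0.362 from edgeR). *Klf4* was 8.996, 9.401 and 8.26 CPM in control and 13.8, 18.1 and 12.6 CPM in miDrp1KO libraries (log2 fold change 0.75, adjusted p = 0.362) and *Klf2* 4.404, 3.43 and 2.82 CPM in control and 6.27, 4.07 and 7.49 CPM in miDrp1KO libraries (log2 fold change 0.75, adjusted p = 0.393). Both encode factors that respond to flow in endothelial cells and are also made by other cells. *Ets2* had a log2 fold change of −0.36 and *Shank3*, a scaffold protein that is expressed in endothelium besides neurons, was the other lower gene (−0.71, named after its values were seen). Of the 23 genes, 2 higher (*Klf4* and *Cd34*) and 2 lower (*Mcam* and *Ets2*) had groups that did not overlap, beside 18.0% of all genes. *Cd34*, named after its values were seen, had a log2 fold change of 0.28 (unadjusted p = 0.109 and adjusted p = 0.555 from edgeR). The 12 tested markers of pericytes and vascular smooth muscle, the cells that wrap capillaries and arterioles, had a median of 0.041, with 7 higher, 5 lower and none at an unadjusted p under 0.05. Their median ran from −0.17 without control C to 0.34 without control B. Summed, they were 609.8, 491 and 567 CPM in control and 523, 501 and 365 CPM in miDrp1KO libraries, of which *Abcc9*, a channel subunit that fibres also make and that is named after its values were seen, was the largest part.

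**Figure D4:**
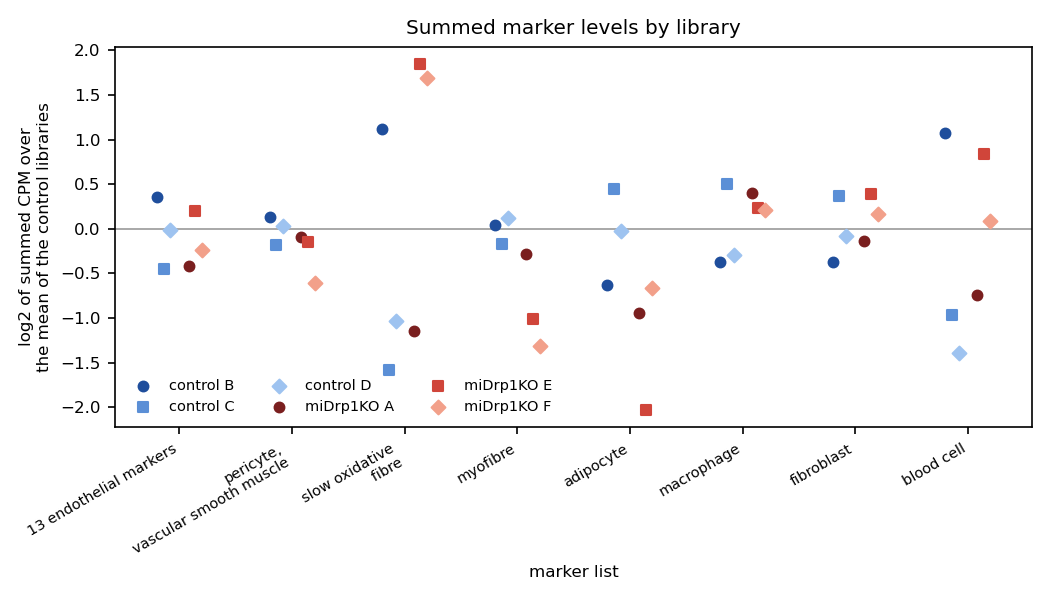
Summed CPM of each marker list in each library as log2 of its ratio to the mean of the control libraries (vertical axis), with 1 point per library. The endothelial and pericyte sums of the groups overlap, control B and miDrp1KO E and F are high for slow fibre markers, and the fast and general myofibre sums of the miDrp1KO libraries lie below those of the control libraries.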

How the data were processed

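Total RNA of quadriceps muscle from 3 control and 3 miDrp1KO mice was depleted of ribosomal RNA, made into stranded libraries and sequenced, and, according to the study's methods, the authors aligned reads to GRCm38 and counted them per gene with Rsubread. They deposited raw counts, whole numbers without normalization for 27179 Entrez genes, in 1 file per library. Libraries were sequenced in 2 pools, whose members are not given in the sources used here, so no pool term was fitted and its part in differences between libraries was not tested. Replicate letters are those of the library names.

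The main test was edgeR 4.0.16 under R 4.3.3, with TMM factors, the filterByExpr filter, a robust quasi-likelihood fit and p-values adjusted over 16483 genes by Benjamini-Hochberg (threshold 0.05), and the code was tested on simulated data. CPM use TMM library sizes, and relative levels use log2 CPM with a prior count of 2. Standard errors are the log2 fold change divided by the root of edgeR's F. Exon lengths are from GENCODE vM21, coordinates and promoters from RefSeq on GRCm38.p6. Alternatives were DESeq2 1.42.0, limma voom (limma 3.58.1), normalization by upper quartile or RLE, all genes kept regardless of count, exclusion of ribosomal RNA genes and *Lars2*, and leaving out each library in turn. The 35 genes and all lists were chosen with earlier results of these data known. All members are named. From the other lists, genes with an unadjusted p under 0.05 are named, at most 4 per list in order of p for lists of other cells, along with defining markers.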

Additional observations from a re-analysis of the deposited data

How the results depend on the processing

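No paired analysis was possible because no letter occurs in both groups. None of the 35 genes had an adjusted p under 0.05 in any of the 12 alternatives, the lowest being 0.162 with DESeq2, which gave an adjusted p to 10 of them. Of the 35 genes, 16 kept their direction in all 12 alternatives and 19 did not, and the cause was not tested. Estimates that kept it still varied, from −0.98 to −0.25 for *Sox7*, −0.52 to −0.018 for *Erg* and −0.39 to −0.012 for *Sox17*. Ranges were −0.51 to −0.20 for *Notch4*, −0.50 to −0.17 for *Robo4* and −0.52 to −0.11 for *Rasip1*. For *Pecam1*, *Mmrn2* and *Emcn* they were −0.55 to −0.19, −0.45 to −0.11 and −0.48 to −0.039. Those of *Eng*, *Ly6c1* and *Tek* were −0.32 to −0.14, −0.20 to −0.0022 and 0.0093 to 0.22. With 3 mice per group, changes of over 2-fold could have been missed for the 5 genes whose intervals reach beyond it, and smaller ones for the others.

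The number of genes at an unadjusted p under 0.05 was 2, and was 1 with DESeq2, 0 with upper quartile normalization and from 0 to 5 when 1 library was left out (0 without control D or miDrp1KO F, 1 without control B, *Gpihbp1*, and 1 without miDrp1KO A, *Cldn5*, both higher, and 5 without miDrp1KO E, all lower). The number whose groups did not overlap was 2, and was 1 with upper quartile normalization, 5 on the scale relative to the other members and from 2 to 10 when 1 library was left out (10 without control C, 9 without miDrp1KO E), where fewer libraries make such a split more frequent (23.1 to 37.7% of all genes). The median log2 fold change ran from −0.32 without control C to 0.067 without control B, the sole positive value. Over all genes, 2 had an adjusted p under 0.05 in edgeR, 94 with DESeq2, 1 with limma voom, 8 with no filter on low counts, and from 1 to 7 when 1 library was left out (7 without miDrp1KO A). Upper quartile normalization raised the median of all genes from 0.017 to 0.11, and 21 of the 35 genes were then lower.

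Reversed log2 fold changes were −0.065 for *Icam2* and 0.025 for *Vegfa* with limma voom. With upper quartile normalization they were 0.037 for *Cdh5*, 0.079 for *Sox18*, 0.011 for *Egfl7*, 0.055 for *Vegfa* and 0.061 for *Vegfb*. Without *Lars2* and ribosomal RNA genes they were 0.028 for *Sox18*, 0.0095 for *Vegfa* and 0.012 for *Vegfb*. When 1 library was left out, estimates that changed sign ran from −0.31 to 0.35 for *Cdh5*, from −0.14 to 0.38 for *Esam*, from −0.28 to 0.28 for *Icam2*, from −0.87 to 0.062 for *Kdr*, from −0.38 to 0.13 for *Flt1*, from −0.50 to 0.28 for *Flt4*, from −0.34 to 0.10 for *Tie1*, from −0.33 to 0.051 for *Ptprb*, from −0.062 to 0.27 for *Clec14a*, from −0.44 to 0.42 for *Apln*, from −0.96 to 0.050 for *Aplnr*, from −0.11 to 0.44 for *Dll4*, from −0.18 to 0.27 for *Sox18*, from −0.48 to 0.061 for *Nos3*, from −0.0093 to 0.47 for *Vwf*, from −0.24 to 0.067 for *Aqp1*, from −0.29 to 0.17 for *Egfl7*, from −0.27 to 0.32 for *Vegfa* and from −0.28 to 0.28 for *Vegfb*.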

Other observations

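No marker that separates kinds of endothelium was called after adjustment. All 6 lymphatic markers had a positive log2 fold change (median 0.38, and 0.055 without miDrp1KO replicate E), summing to 46.5, 47.01 and 45.4 CPM in controls B, C and D against 45.98, 76.5 and 60.8 CPM in miDrp1KO mice A, E and F. *Lyve1*, a hyaluronan receptor of lymphatic vessels that some macrophages also carry, was 10.99, 14.1 and 11.4 CPM in control and 21.5, 16.1 and 13.4 CPM in miDrp1KO libraries (log2 fold change 0.49, unadjusted p = 0.03401 and adjusted p = 0.424 by edgeR). *Prox1*, the factor that specifies lymphatic endothelium, was 0.947 to 1.33 CPM in control and 1.07 to 1.69 CPM in miDrp1KO libraries. The 6 venous markers were all positive as well (median 0.19, and 0.049 without miDrp1KO E), as were 6 of the 7 arterial markers (median 0.31, and from 0.15 without control C to 0.52 without miDrp1KO A), among which *Bmx*, a kinase of arterial endothelium, was 1.33, 1.82 and 1.25 CPM in control and 2.24, 1.96 and 3.22 CPM in miDrp1KO libraries, without overlap (log2 fold change 0.77, adjusted p = 0.431). *Bmx* was the 1 of the 7 arterial markers without overlap, beside 18.0% of all genes. At an unadjusted p under 0.05 in edgeR there were 1 of 6 lymphatic, 0 of 6 venous and 1 of 7 arterial markers. Both were higher, beside 4.68% of all genes on that side.

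Of 10 macrophage markers, 7 were higher and 3 lower, and 4 had an unadjusted p under 0.05, all higher, namely *C1qb*, *C1qa*, *C1qc* and *Lyz2*, beside 4.68% of all genes. The groups did not overlap for 2 of the 10, beside 18.0% of all genes. The complement gene *C1qa* was 14.3, 23.5 and 14.4 CPM in control and 26.2, 28.5 and 26.2 CPM in miDrp1KO libraries (adjusted p = 0.382 from edgeR). The macrophage sums were 172, 313 and 180.00 CPM in control and 292, 259.9 and 257 CPM in miDrp1KO libraries, and control B, the mouse with the highest endothelial levels, had the lowest of them. The 9 fibroblast markers summed to 2034, 3392 and 2493 CPM in control and 2395, 3470 and 2950 CPM in miDrp1KO libraries, with control B again the lowest. The part of these cells in the endothelial values was not tested.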
